A study of Mus musculus with 10 samples.

Results

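Gene expression in normal tissue was described from the 5 wildtype arrays of a series of 10, chosen as the arrays whose titles name them wildtype. The 5 Fbln1-null arrays entered none of the values below. Each wildtype array measured total RNA from mouse tissue microdissected at embryonic stage E10.5, which held the hindbrain and pharyngeal arches 1 to 4. The embryos came from matings of mice heterozygous for a gene trap insertion in Fbln1, the gene of the matrix protein fibulin-1, and were genotyped from yolk sac. They were therefore wildtype embryos of the gene-trap strain, with no treatment. Litter, sex and whether an array held tissue of 1 embryo or a pool are not given in the labels, so the spread between arrays may hold any of these.

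The hindbrain at this stage is divided into rhombomeres, segments that each carry a combination of Hox genes, and its ventricular zone produces the cranial motor neurons and interneurons. Neural crest cells leave the hindbrain and fill the pharyngeal arches, where they form mesenchyme around a mesoderm core, covered outside by ectoderm and lined inside by pharyngeal endoderm. The arches give rise to the jaws, the middle ear, the hyoid and the great vessels near the heart. Dissected tissue therefore holds neural, crest, muscle, epithelial, vessel and blood cells at once.

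Signal was read on an Affymetrix array with 22626 probe sets that are not controls, as log2 values from the GCRMA method. A value is the signal of a probe set, which depends on how well its probes bind as well as on the amount of transcript. Ranks by brightness therefore describe signal, not transcript number. Of these probe sets, 9214 (40.7%) had a value above log2 4 on all 5 arrays, the level used here to call a probe set expressed. A further 12097 (53.5%) were above it on no array, and 1315 (5.81%) on some arrays but not all. Mean signal over the 5 arrays had a median of 3.26, and 10698 probe sets had a mean under log2 3, where the method gathers dim probe sets near a floor. At the other end 240 probe sets had a mean of 12 or more. When each gene was represented by its brightest probe set, 5601 of 12393 genes (45.2%) were expressed on all 5 arrays, and their median mean was 7.15.

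The 5 arrays had medians between 3.23 and 3.28, and 9781 to 9943 probe sets above log2 4 each. Pearson correlations between arrays, across expressed probe sets, ran from 0.968 for replicates 1 and 4 to 0.991 for replicates 1 and 2, with 0 identical pairs. Probe sets are not independent replicates, so these correlations only describe the arrays. The median absolute difference between arrays was 0.18 for replicates 1 and 2 and 0.32 for replicates 1 and 4. The control probe sets for Gapdh were brighter at the 3' than at the 5' end by 2.32, 1.97, 1.99, 1.68 and 1.84 on replicates 1 to 5. Replicate 4 had the smallest difference, also for the beta-actin controls, where the other 4 arrays had 2.27 to 2.38. The files give no scan date or hybridisation batch.

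The spread of a typical expressed probe set was small. The SD over the 5 arrays had a median of 0.25 over the 9214 expressed probe sets, with a 5th percentile of 0.089 and a 95th percentile of 0.52. In 549 of them (5.96%) the SD exceeded 0.5, and in 17 it exceeded 1. With the probe sets divided into 10 classes by mean signal, the median SD was 0.23 in the dimmest class, 0.28 in the next 2 and lower in the brighter ones, down to 0.18 in the brightest class.

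**Figure D1:**
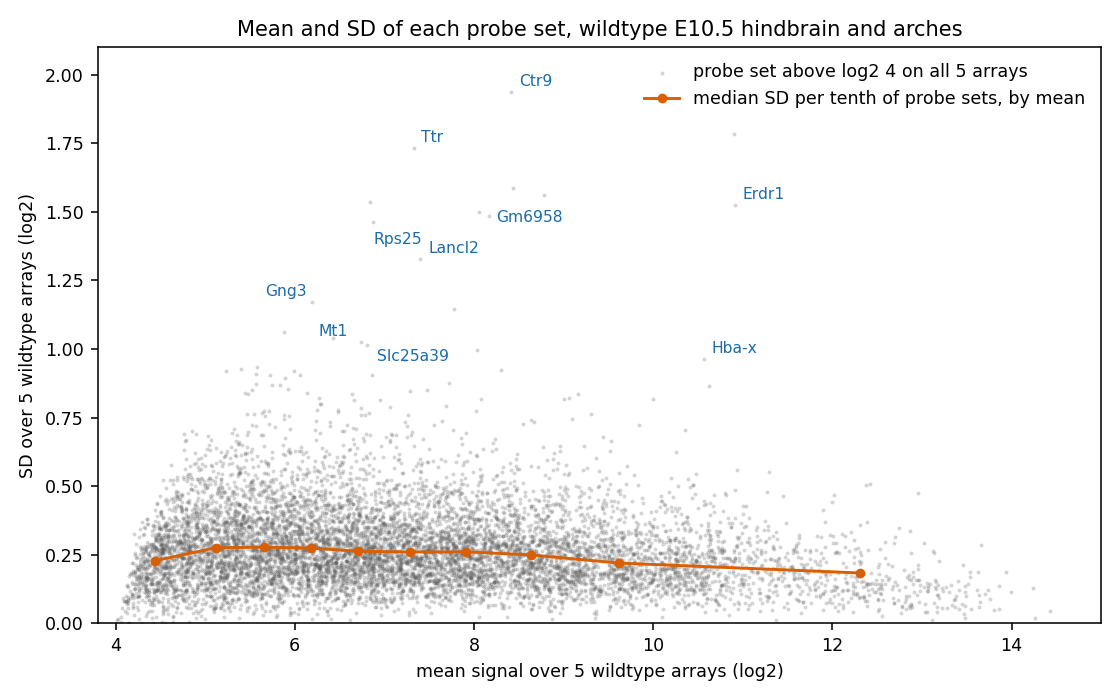
SD over the 5 wildtype arrays (log2) against mean signal (log2) for each of the 9214 probe sets above log2 4 on all 5 arrays, with the median SD in each of 10 equal classes by mean. The line stays between 0.18 and 0.28, and the 10 most variable genes, named beside their points, lie far above it.

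The brightest genes were those of protein synthesis, chromatin and the cytoskeleton. Of the 30 genes with the highest mean signal, 22 belonged to lists of general cell machinery, as did 62 of the top 100, of which 30 were cytosolic ribosomal proteins. Rpl41, a small protein of the large ribosomal subunit, ranked at the top with 14.02, 14.10, 13.80, 14.05 and 13.97 on replicates 1 to 5, a mean of 13.99 ± 0.12 (SD, n = 5). Rpl35, another protein of that subunit, followed at 13.93 ± 0.19. Ran, the small GTPase of nuclear transport, had 13.68, 13.67, 13.62, 13.53 and 13.73. The SD of each of these 3 genes was below the median SD of 0.25 over all expressed probe sets. That of Rpl35 (0.188) was above the median of the brightest class (0.183), with 13.63 on replicate 4 and 13.90 to 14.13 on the other arrays.

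The sequences just upstream of these genes and of embryonic globin genes are shown. Rpl41, Rpl35 and Ran stand for bright genes with an SD below 0.25. The embryonic globin genes Hbb-y and Hba-x stand for bright genes whose signal differed more between arrays (below). Each is the stretch of 100 bases that ends before the annotated start of the gene in RefSeq, assembly GRCm38.p6, 5′ to 3′ on the gene's own strand. Capitals mark the letters ATAAA where they start 40 to 20 bases before the gene's start on the gene's strand, the place and core of a TATA box, and CCAAT on either strand (ATTGG when read on the other). The windows are chr10:128549169-128549268 for Rpl41 and chr2:39005132-39005231 for Rpl35, both on the minus strand, and chr5:129020056-129020155 on the plus strand for Ran. Those of the globins are chr7:103853208-103853307 on the minus strand for Hbb-y and chr11:32276500-32276599 on the plus strand for Hba-x.
Rpl41: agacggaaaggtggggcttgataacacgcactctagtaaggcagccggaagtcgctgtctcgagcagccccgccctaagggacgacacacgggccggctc
Rpl35: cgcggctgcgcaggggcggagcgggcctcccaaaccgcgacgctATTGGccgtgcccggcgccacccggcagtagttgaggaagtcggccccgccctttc
Ran: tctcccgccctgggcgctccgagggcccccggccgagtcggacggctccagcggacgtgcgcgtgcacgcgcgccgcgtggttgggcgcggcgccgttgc
Hbb-y: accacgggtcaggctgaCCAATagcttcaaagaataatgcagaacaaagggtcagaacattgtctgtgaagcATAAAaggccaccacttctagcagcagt
Hba-x: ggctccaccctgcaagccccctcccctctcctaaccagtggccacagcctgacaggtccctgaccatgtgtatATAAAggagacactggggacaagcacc

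Both globin windows hold ATAAA in that place, at 28 bases before the start in Hbb-y and 27 in Hba-x, and none of the other 3 windows does. Over all 27025 genes with a RefSeq promoter, 5.09% hold it. The share was 2.35% of the 4604 expressed genes with a promoter, 8.04% of the 4726 genes above log2 4 on no array, 4.71% (4 of 85) of the 100 brightest and 4.94% (4 of 81) of the 100 most variable. CCAAT on either strand stood in 21.6% of all windows, 27.6% of those of expressed genes, 34.1% of those of the 100 brightest, 25% of those of the 30 brightest and 27.2% of those of the 100 most variable. The count of the dinucleotide CG in the 250 bases before the start had a median of 6 over all genes, 17.5 over expressed genes, 19 over the 100 brightest and 8 over genes above log2 4 on no array. These matches describe the letters in the windows and identify no bound factor.

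Among the other ribosomal proteins in the top 30, Rps24 had a mean of 13.42 ± 0.12, Rpl7a 13.37 ± 0.06, Rpl27 13.27 ± 0.13, Rpsa 13.19 ± 0.09, Rpl4 13.18 ± 0.10, Rpl11 13.09 ± 0.14, Rps18 13.05 ± 0.15, Rps3 12.94 ± 0.16 and Rps15 12.90 ± 0.19 (SD, n = 5 each). Rps28 had the widest spread of the 30, with 13.18, 13.25, 12.97, 12.13 and 13.25, so that replicate 4 lay below the other 4 arrays. Its other probe sets had their lowest values on replicate 4 too, at 11.51 and 11.68. Rps3a1 (13.38 ± 0.10) is also a ribosomal protein, although its name kept it out of the list. Eef1a1, the elongation factor that brings aminoacyl-tRNA to the ribosome, had 13.34 ± 0.07, and Naca, a chaperone at the ribosome exit, 12.88 ± 0.06. Rplp2, an acidic protein of the ribosome stalk, closed the 30 at 12.86 ± 0.34, with Rpl27a just outside at 12.86.

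The chromatin and cytoskeletal genes of the top 30 included Hmgn1, a nucleosome-binding protein (13.30 ± 0.12), and Rbbp4, a histone chaperone (13.07 ± 0.12). Stmn1, the microtubule-destabilising protein stathmin of dividing and neural cells, had 13.67, 13.56, 13.61, 13.26 and 13.21. Cfl1, the actin-severing cofilin, had 13.06 ± 0.12, and Tmsb4x, which binds actin monomers, 12.92 ± 0.11. Outside the lists stood Ywhae, a 14-3-3 adaptor protein (13.73 ± 0.12), Mrfap1 (13.71 ± 0.11), Sod1, the cytosolic superoxide dismutase (13.49 ± 0.10), Vdac1, the outer mitochondrial membrane channel (13.17 ± 0.06), Ewsr1, an RNA-binding protein (12.97 ± 0.08), and Cd24a, a surface glycoprotein of embryonic epithelia and neurons (12.96 ± 0.20). Cox7a2, a subunit of cytochrome c oxidase, had 13.13 ± 0.07.

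Hmgcs1, which makes the HMG-CoA of cholesterol synthesis, had the smallest spread of the 30, at 13.49 ± 0.018 (SD, n = 5). Its other probe sets had means of 9.26 to 9.82 with SDs of 0.26 to 0.42, so the even signal belonged to its brightest probe set alone. Probe sets of the kinds marked _x_at or _s_at, which can bind transcripts of several genes, represented 13 of the 30 brightest genes (43.3%), against 9.66% of all genes on the array. Rpl41 and Rpl35 are among families with many near-identical processed copies in the genome, so signal on such probe sets cannot be assigned to a single gene with certainty.

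Of 350 measured marker genes of the tissue and its neighbours, in 19 lists, 113 (32.3%) were expressed on all 5 arrays, beside 45.2% of all genes on the array. Some genes stand in more than 1 list. The share over all genes was exceeded in 7 lists, from Hox cofactors (76.9%) and neural crest (76.5%) down to arch mesenchyme (52.4%) and Hox groups 1 to 5 (50%). Of these 7, progenitors (55.6%), proneural factors (53.3%), arch mesenchyme and Hox groups 1 to 5 (6 of 12 genes) lay near that share. It was not reached in the other 12, among them muscle and somite (31.8%), endothelium (30.8%), endoderm and ectoderm (28%), red cells (25%) and arch dorsoventral patterning (21.1%), although the dissected tissue holds such cells. In bulk tissue fewer cells of a type and less RNA per cell cannot be told apart.

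**Figure D2:**
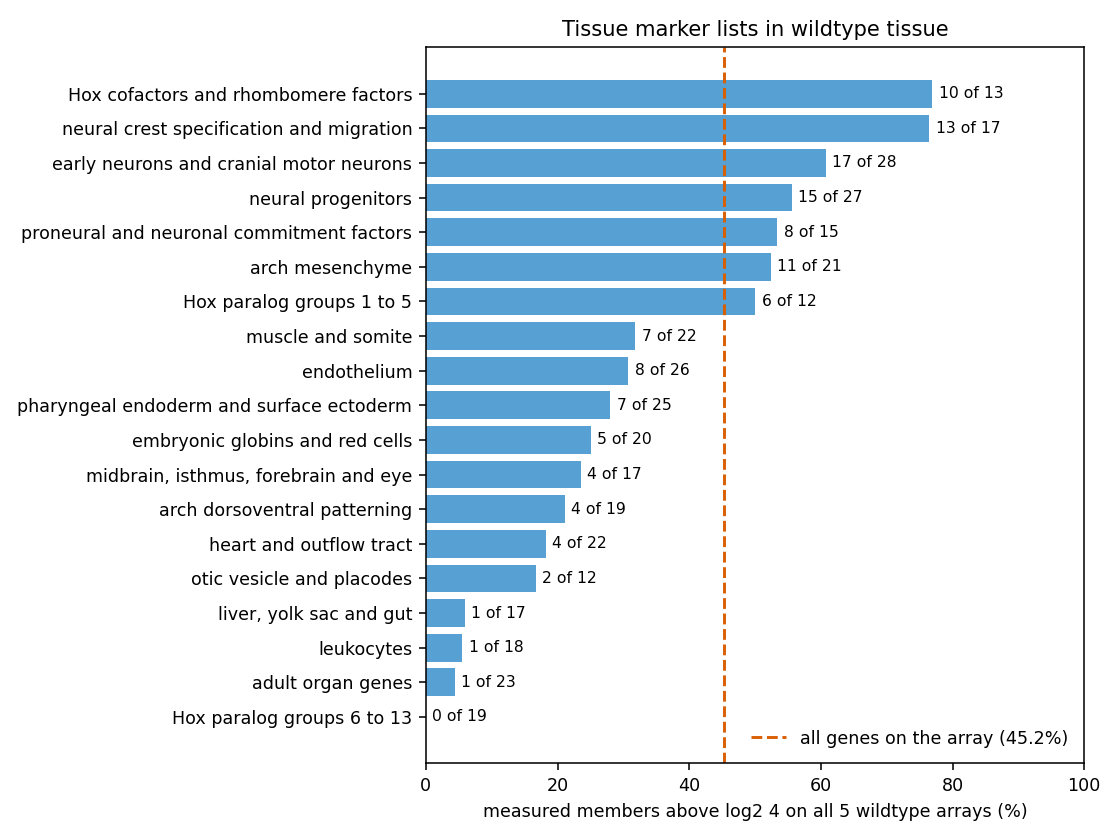
Share of each tissue list's measured genes that were above log2 4 on all 5 wildtype arrays (bars, %), with the count of genes at each bar and the share over all genes on the array as a dashed line (45.2%). The lists of Hox cofactors, neural crest, neurons, progenitors, proneural factors, arch mesenchyme and Hox groups 1 to 5 lie to the right of the line, and no gene of Hox groups 6 to 13 passed.

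Hox genes, which give the rhombomeres and arches their position along the body axis, were described by paralog group. Of 12 measured genes of groups 1 to 5, 6 were expressed on all 5 arrays. Hoxc4 had 7.93, 8.09, 7.93, 7.15 and 7.10 (mean 7.64 ± 0.47), Hoxa3 had 7.35, 7.59, 7.09, 6.72 and 6.55 (7.06 ± 0.43), and Hoxb4 had 7.12, 7.58, 6.72, 6.14 and 6.27 (6.76 ± 0.60). In each of these genes replicate 2 was highest, and replicates 4 and 5 were the lower arrays. Hoxb5 had 6.28, 6.25, 5.18, 5.24 and 5.16, and Hoxa5 had 5.40, 5.50, 4.38, 4.50 and 5.18, with replicates 1 and 2 above the other 3 arrays in both. Hoxa2, the selector gene of the second arch, had 5.52, 5.11, 5.07, 4.92 and 4.81.

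Hoxb3 was above log2 4 on 4 arrays (mean 4.31 ± 0.19) and Hoxa4 on 2, with 4.50, 5.17, 3.55, 3.43 and 3.85. Hoxb1, which marks the fourth rhombomere, Hoxb2, Hoxd1 and Hoxc5 were above it on none, with means of 2.75, 3.05, 2.61 and 2.46. Of these Hoxb2 had the highest single value, 3.79 on replicate 1. A value under the threshold does not show that a gene is not transcribed in the tissue.

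None of the 19 measured genes of Hox groups 6 to 13, which are expressed in the trunk, limbs and tail, was above log2 4 on all 5 arrays, and 14 were above it on none. Several were bright on replicate 2 alone. Hoxd9 had 7.86 on replicate 2 and between 2.27 and 2.28 on the other 4 arrays. Hoxa9 had 5.50 there and Hoxd10 5.48, with values of 2.28 to 2.30 on each other array, and Hoxa10 had 4.96 there against at most 2.43. Hoxb9 had 5.15 on replicate 1, 5.65 on replicate 2 and 3.29 to 3.48 on the other 3.

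Counted per array, 1 of the 19 genes was above log2 4 on replicate 1, 5 on replicate 2 and 0 on replicates 3, 4 and 5. The log2 of their summed signal was 7.03, 8.95, 6.65, 6.68 and 6.71. Those of groups 11 to 13 stayed at means of 2.27 to 2.31. The same array had the highest score of Hox groups 1 to 5, and the part of trunk or limb tissue in that score was not tested.

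The genes that work with Hox proteins or pattern rhombomeres were expressed in 10 of 13 cases. Meis2, a TALE homeodomain cofactor, had 9.22, 9.53, 9.27, 9.31 and 9.22, and Pbx2, another, had 9.13 ± 0.34. Pbx3 had 6.54 ± 0.25, Pknox1 5.42 ± 0.39, Meis1 4.96 ± 0.34 and Meis3 4.40 ± 0.07. The orphan nuclear receptors Nr2f1 and Nr2f2 had 8.93 ± 0.16 and 9.61 ± 0.17. Epha4, the ephrin receptor of rhombomere borders, had 4.95 on replicate 1 and 6.38 on replicate 4, with the other 3 arrays between 5.75 and 5.92. Irx3, a homeobox gene of the neural tube, had 6.19, 5.95, 5.04, 4.87 and 4.57, with replicates 1 and 2 above the rest. Egr2, which marks the third and the fifth rhombomere, was above log2 4 on no array (2.99 ± 0.14).

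Neural progenitor genes were expressed in 15 of 27 cases. Vim, the intermediate filament of progenitors and mesenchyme, had 12.53, 12.53, 12.69, 12.45 and 12.25. Fabp7, the fatty acid binding protein of radial glia, had 11.03 ± 0.43, with 11.71 on replicate 3 above the other arrays. Prom1, a protein of apical membranes, had 10.01 ± 0.32. The dorsal neural tube genes Pax3 (9.18 ± 0.17) and Zic1 (8.93 ± 0.18) varied by less than the median SD. Cdh2, the neural cadherin, had 8.76, 8.95, 8.91, 7.72 and 7.99, so that replicates 4 and 5 were apart from the other 3. Sox2, the general progenitor factor, had a mean of 7.58, whereas Sox1, Sox3 and Sox21 of the same family were above log2 4 on no array. The ventral progenitor genes Olig2, Nkx2-2 and Nkx6-1 were also above it on none, with means of 2.47 to 3.27.

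Genes of neuronal commitment were expressed in 8 of 15 cases. Myt1, a zinc finger factor of new neurons, had 9.96 ± 0.37. The early B-cell factors Ebf1, Ebf2 and Ebf3, which act in migrating neurons, had 9.05 ± 0.18, 7.85 ± 0.06 and 9.89 ± 0.29. The Ebf2 signal came from 1 probe set, with 7.95 on replicate 1 and 7.82 to 7.83 on replicates 2 to 5. Its other probe sets, at means of 2.92 and 2.55, were above log2 4 on no array. Neurod1 had 8.96, 8.55, 8.38, 8.03 and 8.34, and Neurod4 had 7.80 ± 0.25. Neurog2 had a mean of 5.84. Neurog1 was above log2 4 on 4 arrays (mean 4.32), and Atoh1 and Ptf1a, which mark dorsal rhombic lip and interneuron progenitors, on none.

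Neuronal genes were expressed in 17 of 28 cases, and 13 of the 17 had their lowest value on replicate 4. Shares of all expressed genes with their lowest value on a given array were not counted. Replicate 4 was also lowest in 43 of the 100 genes with the highest SD. It was lowest in 20 of 40 expressed cytosolic ribosomal proteins and 36 of 78 respiratory chain genes, but in 5 of 35 cell cycle genes. Crabp1, the retinoic acid binding protein of hindbrain neurons and crest, had 11.80, 11.85, 11.53, 11.46 and 11.84. Ncam1, the neural adhesion molecule, had 11.17, 11.41, 11.06, 10.44 and 10.84, and Isl1, the LIM factor of motor neurons and of heart progenitors, had 9.81 on replicate 4 and a mean of 10.24 ± 0.31. On these probe sets replicate 4 was the lowest array in all 3 genes. The second expressed probe set of Isl1 was lowest on replicate 1 (6.90, against 7.03 on replicate 4). That of Ncam1 was lowest on replicate 5 (9.19, against 9.27 on replicate 4).

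Stmn2, a growth cone protein, had 9.53, 9.39, 10.21, 9.04 and 9.99, and Nefl, a neurofilament, had 9.68, 9.20, 9.63, 8.50 and 9.51. Dcx, the microtubule protein doublecortin, differed in that replicate 2 was lowest, with 9.44, 8.20, 10.35, 9.29 and 9.29. Its second probe set had 8.17 on replicate 3 and 6.40 on replicate 4, so the highest array was shared and the lowest was not. The mean deviation of the 17 genes from their own means was 0.17, 0.01, 0.23, -0.47 and 0.06 on replicates 1 to 5, and the mean deviation of all expressed genes lay between -0.03 and 0.06. Phox2a, a factor of hindbrain visceral motor neurons, Isl2 and Map2 were above log2 4 on no array.

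Neural crest genes were expressed in 13 of 17 cases. Nrp1, a semaphorin and VEGF receptor of migrating crest and vessels, had 9.05 ± 0.15, and Nrp2 had 6.41 ± 0.22. Sox9, a crest and cartilage factor, had 8.85, 8.75, 8.33, 7.88 and 7.83, with replicates 1 and 2 highest. The AP-2 factors Tfap2c, Tfap2a and Tfap2b had 6.54 ± 0.17, 5.38 ± 0.66 and 5.14 ± 0.55. Tfap2a varied most of the 3, with 6.24, 5.09, 5.93, 4.85 and 4.79. Ets1, a factor of cranial crest and vessels, had 6.70 ± 0.34, Erbb3, the neuregulin receptor of glial crest, 6.07 ± 0.25, and Snai2, a repressor of cadherins in migrating crest, 5.08 ± 0.30. Ednrb, the endothelin receptor of crest that becomes pigment and gut neurons, had 5.97 on replicate 3 and 4.99 to 5.13 on the others. Sox10, which marks glial and pigment crest, was above log2 4 on 1 array (mean 4.01), and the early crest genes Foxd3 and Snai1 on none. Pax3, Zic1 and Crabp1 are counted in this list as well as in the neural lists.

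Arch mesenchyme genes were expressed in 11 of 21 cases. Prrx1, a homeobox gene of craniofacial and limb mesenchyme, had 10.32, 10.29, 10.12, 9.83 and 10.03, and Pdgfra, the PDGF receptor of crest mesenchyme, had 9.60 ± 0.20. Twist1, a basic helix-loop-helix factor that keeps crest mesenchymal, had 8.72 ± 0.24, and Twist2 6.17 ± 0.39. Lhx8, a LIM factor of the jaw arch, had 8.42 ± 0.32. The forkhead factors Foxc2 and Foxc1 had 7.77 ± 0.55 and 7.48 ± 0.35. On these probe sets they did not share their highest array, since Foxc2 was highest on replicate 1 (8.50) and Foxc1 on replicate 4 (7.96). The other, dimmer probe set of Foxc1 (mean 4.73) was highest on replicate 1 (5.25), as Foxc2 was. Tgfbi had 7.93 ± 0.30, Col2a1, the collagen of cartilage and notochord, 7.21 ± 0.12, and Mef2c 7.05 ± 0.23. Alx4, Lhx6, Osr1, Osr2 and Pitx1 were above log2 4 on no array, at means of 2.28 to 2.66.

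Genes that set the upper and lower parts of each arch were expressed in 4 of 19 cases. Dlx2 had 8.00, 7.43, 6.86, 7.94 and 7.33 (7.51 ± 0.47), and Dlx1 had 5.20, 5.11, 4.53, 5.37 and 5.44 (5.13 ± 0.36), both lowest on replicate 3. These are the Dlx genes of the whole arch. The lower-arch genes Dlx5, Dlx6, Hand1 and Hand2 were above log2 4 on no array, with means of 2.31 to 2.48. Values so near the floor do not show that these genes are not transcribed in the arches. Ece1, the enzyme that activates endothelin, had 7.37, 6.96, 5.52, 6.44 and 6.34, and its substrate's gene Edn1 had 2.49 ± 0.19. Nr2f1, given above, was the other member. Bmp4 was above log2 4 on 4 arrays and Jag1 on 3. All 4 expressed genes had their lowest value on replicate 3.

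Pharyngeal endoderm and surface ectoderm gave expressed signal for 7 of 25 genes. Krt18, a keratin of simple epithelia, had 7.20, 7.51, 6.87, 7.46 and 7.69, its partner Krt8 had 5.12, 5.03, 4.25, 5.06 and 5.31, and both were lowest on replicate 3. Cldn6, a tight junction protein of embryonic epithelia, had 7.98 on replicate 4 and 6.71 to 7.08 on the others. Trp63, the factor of stratified ectoderm, had 6.53 ± 0.43, Epcam 6.51 ± 0.20, and Pax1, which marks the pharyngeal pouches and sclerotome, 5.54 ± 0.76. Pax1 had 6.01, 6.51, 4.59, 5.04 and 5.55, with replicate 3 lowest again. The mean deviation of the 7 genes was -0.38 on replicate 3 and between 0.05 and 0.21 on the other 4. Tbx1, Pax9, Shh and Fgf8 were above log2 4 on no array. Fgf8 lay at 2.26 on each of the 5, although its protein is a signal of these epithelia.

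Genes of the ear, the other brain regions, the heart and muscle passed in 16.7% to 31.8% of cases. Of 12 otic and placode genes 2 passed, Sall4 (9.40 ± 0.56) and Six4 (5.46 ± 0.09), neither of which is restricted to the ear. Of 17 midbrain, forebrain and eye genes 4 passed, of which Otx2, the factor of forebrain and midbrain, had 5.21, 5.06, 5.09, 5.32 and 5.62. En1, En2, Pax5 and Wnt1, which mark the midbrain-hindbrain border, had means of 2.27 to 2.39. Heart and outflow tract genes passed in 4 of 22 cases, with Actc1, the cardiac actin that early skeletal muscle also makes, at 6.16, 6.66, 6.33, 6.71 and 7.04. The atrial myosin light chain Myl4 was also highest on replicate 5 (6.60), while Nppa, Myh6 and Nkx2-5 were above log2 4 on no array. Tbx20, expressed in heart and in cranial motor neurons, had 5.19, 5.06, 6.07, 6.89 and 6.20. Muscle and somite genes passed in 7 of 22 cases, Myog (5.25 ± 0.29), Myh3 (5.18 ± 0.27) and Meox2 (5.12 ± 0.36) among them.

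Vessel genes passed in 8 of 26 cases. The angiopoietin receptor Tek had 7.46, 7.82, 7.78, 8.11 and 7.87, the VEGF receptors Flt1 and Kdr had 6.53 ± 0.19 and 5.52 ± 0.27, and Fli1 had 6.23 ± 0.45. Cd34 and Emcn, surface sialomucins of endothelium, had 5.97 ± 0.22 and 5.85 ± 0.13. Pecam1 and Cdh5, junction proteins of endothelium, were above log2 4 on no array (2.39 and 2.38). The receptor genes Tie1 and Flt4 were also above it on none, at means of 3.21 and 3.25.

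Of 18 leukocyte genes only Coro1a, an actin regulator of blood cells that other cells also make, was expressed on all 5 arrays. Another 3 were above log2 4 on some arrays, and 14 on none, among them Ptprc, Cd68, Csf1r and Adgre1. The complement gene C1qb had 3.03 on replicate 4 and 5.10 to 5.74 on the others. Its second probe set had 3.36 on replicate 4 and 4.27 to 4.80 on the others, and its dimmest had a mean of 2.34. Of 23 genes of adult organs Prm1, a sperm protamine, passed at 5.11 ± 0.25. Its other probe sets lay at means of 2.36 and 2.34, so that this signal came from 1 of 3 probe sets.

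The 5 expressed genes of the embryonic globin and red cell list had a median mean signal of 10.91, the highest of the 19 tissue lists. That median was the value of Tfrc. It leaves out 5 members above log2 4 on some arrays and 10 above it on none. Hbb-y, the embryonic beta-like globin, had 12.81, 12.85, 12.94, 12.14 and 12.99 (12.75 ± 0.35), and Hbb-bh1, another, had 12.14, 12.58, 12.74, 11.69 and 12.97 (12.42 ± 0.51). Hba-x, the zeta globin of primitive red cells, had 10.62, 10.92, 11.09, 8.90 and 11.30 (10.57 ± 0.96). On these probe sets replicate 4 was lowest and replicate 5 highest in all 3 genes. Both other probe sets of Hbb-y were also lowest on replicate 4, at 12.17 and 11.89, but highest on replicate 3, at 12.99 and 12.56. Of the other probe sets of Hbb-bh1, the dimmer was lowest on replicate 4 (10.61) and highest on replicate 3 (11.74), and the brighter had 11.47 on both replicates 1 and 4 and its highest value, 12.36, on replicate 5. Hba-a2 had 8.34, 8.63, 9.18, 8.76 and 8.75 and had its lowest value on replicate 1. Hba-a1, a near-identical copy of Hba-a2, lay at 2.26, so the alpha globin signal cannot be divided between the copies.

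Tfrc, the transferrin receptor of red cell precursors and of dividing cells, had 10.91 ± 0.24. Of the 20 genes of the list 5 passed, and the erythroid factors Gata1 and Klf1 and the heme enzyme Alas2 were above log2 4 on no array. The log2 of the list's summed signal was 13.91, 14.14, 14.30, 13.37 and 14.36 on replicates 1 to 5. How much blood each dissection held was not tested.

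Among 17 liver, yolk sac and gut genes only Ttr was expressed on all 5 arrays. Ttr, the thyroxine carrier transthyretin, which liver, yolk sac and choroid plexus make, had 7.75, 7.24, 8.96, 4.44 and 8.24 (7.33 ± 1.73). Its other probe sets also had their highest value on replicate 3 (7.18 and 6.52) and their lowest on replicate 4 (3.42 and 2.54). Some other plasma proteins of this list were bright on replicate 5 alone. Afp, alpha-fetoprotein, had 7.30 there and 2.28 to 2.39 on the other 4 arrays, Apoa2 had 6.39 against 2.73 to 3.58, and Apom 5.21 against 2.45 to 2.94. Apoa1 (4.82) and Rbp4 (4.27) were also above log2 4 on that array only. The other probe sets of Apoa1 had 3.63 to 3.85 on replicate 5, and that of Apom had 2.59. The apolipoprotein genes Apoa4, Apob and Apoc2 were above log2 4 on no array.

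Per array, 1, 1, 1, 1 and 6 of the 17 genes were above log2 4, and the log2 of their summed signal was 8.22, 7.88, 9.18, 6.88 and 9.45. Alb, the defining liver plasma protein, reached 3.91 on replicate 5 and at most 2.32 elsewhere, and Hnf4a, the liver and visceral endoderm factor, at most 2.76. The second probe set of Afp had 6.53 on replicate 5 and at most 2.72 elsewhere, and its other 3 were at 3.35 or less. A part of yolk sac or liver tissue in these values was not tested.

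**Figure D3:**
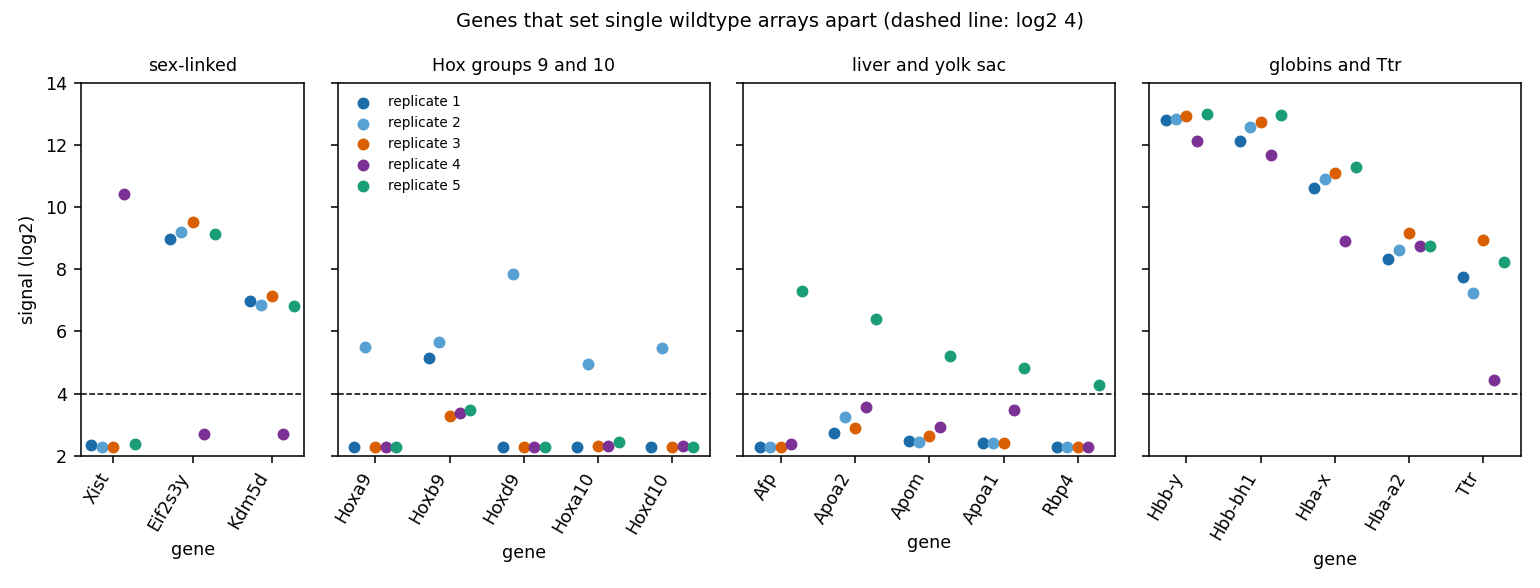
Log2 signal of genes that set single wildtype arrays apart, a point for each of the 5 arrays, with the level of log2 4 dashed. Hoxa9, Hoxd9, Hoxa10 and Hoxd10 stand above the line on replicate 2 alone. Afp, Apoa2, Apom, Apoa1 and Rbp4 do so on replicate 5 alone. Xist does so on replicate 4 alone, where Hbb-y, Hbb-bh1, Hba-x and Ttr are lowest.

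Sex-linked genes divided the arrays. Xist, the RNA that coats the inactive X chromosome of female cells, had 10.42 on replicate 4 and 2.28 to 2.36 on the other 4 arrays. The Y-linked genes Eif2s3y and Kdm5d had 2.70 on replicate 4, against 8.96 to 9.51 and 6.83 to 7.15 on the others. All 3 probe sets of Xist showed this. Uty, also Y-linked, was above log2 4 on no array, with 2.39 on replicate 4 and 2.91 to 3.41 on the others. The labels give no sex, so any gene that is lowest or highest on replicate 4 moved together with these genes, and their part in it was not tested.

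Over the whole array, 247 genes were above log2 4 on exactly 1 of the 5 arrays, with 65, 44, 51, 50 and 37 of them on replicates 1 to 5. Only 8 of these reached log2 5 there, and 7 have been named above (Xist, Hoxd9, Hoxa9, Hoxd10, Afp, Apoa2 and Apom). The other was Syt4, a synaptotagmin of secretory vesicles, with 5.11 on replicate 3 and 3.34 to 3.79 on the rest. In the opposite sense Mageh1 was missing on replicate 1 (2.88, against 6.01 to 6.22), and Slc15a2, a peptide transporter, on replicate 3 (3.72, against 6.20 to 7.60). These genes were chosen after their values were seen.

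Signalling genes were described by pathway, beside the 45.2% of all genes on the array that were expressed. The matrix (55%) and Notch (52.4%) lists lay near that share. The FGF (10.3%), retinoic acid (31.25%) and Hedgehog (33.3%) lists lay below it. Of 40 matrix and basement membrane genes 22 were expressed, with Sparc at 10.63 ± 0.30, the proteoglycan Vcan at 10.28 ± 0.27 and the fibrillar collagen Col3a1 at 9.57 ± 0.20. Fbln1 itself was dim, with 4.93, 5.11, 3.83, 4.47 and 4.40, so that it passed on 4 of 5 arrays. Fbln2 and Fbln5 were above log2 4 on no array. Of 29 FGF ligands and receptors only 3 passed, the receptors Fgfr2 (9.18 ± 0.23) and Fgfr3 (4.97 ± 0.16) and the intracellular family member Fgf13 (6.35 ± 0.22), and 22 were above log2 4 on none.

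In the Hedgehog pathway 5 of 15 genes passed. The receptor and target Ptch1 had 11.81, 11.84, 11.87, 11.65 and 11.56, and the co-receptors Boc and Gas1 had 9.03 ± 0.19 and 8.91 ± 0.44, while the ligand genes Shh, Ihh and Dhh lay at means of 2.26 to 2.29. In the Notch pathway 11 of 21 passed, with the receptors Notch2 at 10.57, 10.60, 9.97, 9.82 and 9.68 and Notch1 at 8.15 ± 0.48, the ligand gene Dll1 at 5.26 and the target Hey1 at 8.63 ± 0.22. In the retinoic acid pathway 5 of 16 passed on all arrays, 4 were above log2 4 on some arrays and 7 on none. Those that passed were the binding proteins Crabp2 (11.73, 12.01, 11.79, 12.44 and 12.21) and Crabp1, given above, the degrading enzyme Cyp26a1 (6.77 ± 0.24), the synthesis enzyme Rdh10 (6.77 ± 0.36) and the receptor Rxra (5.89 ± 0.68). The synthesis enzymes Aldh1a1 and Aldh1a3 and the receptors Rara, Rarb and Rarg were above log2 4 on no array.

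Growth, cell cycle, metabolic and stress lists passed in 45.8% to 89.7% of cases, beside 45.2% of all genes on the array. The lowest, immediate early and heat shock genes (45.8%), lay near that share. Of 17 imprinted growth genes 14 were expressed, with Grb10 at 12.11 ± 0.22, Peg3 at 11.99 ± 0.08 and Ndn at 11.40 ± 0.16. Of 39 cell cycle genes 35 passed, with the ribonucleotide reductase subunit Rrm2 at 12.15 ± 0.15, the replication clamp Pcna at 12.12 ± 0.06 and the topoisomerase Top2a at 11.19 ± 0.04, and none had an SD over 0.5. Of 24 hypoxia and glycolysis genes 18 passed, with Pgk1 at 12.21 ± 0.09 and the glucose transporter Slc2a1 at 12.38, 12.42, 11.62, 12.18 and 11.96. Of 24 immediate early and heat shock genes 11 passed, with Hsph1 at 12.31 ± 0.09 and Jund at 10.48, 10.46, 9.80, 9.64 and 9.76, and Fos, Fosb, Junb and Atf3 were above log2 4 on no array. Their mean deviation was 0.25 and 0.39 on replicates 1 and 2 and between -0.22 and -0.20 on the other 3.

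The machinery lists were nearly complete, beside the 45.2% of all genes on the array that were expressed. All 21 cytoskeletal genes, all 24 chaperones and all 24 translation factors were expressed, as were 23 of 24 nuclear proteins, 40 of 45 ribosomal proteins, 78 of 86 respiratory chain genes, 55 of 59 splicing genes and 33 of 38 proteasome genes. Those that were above log2 4 on no array included Cox6a2, Cox7a1 and Cox8b, known as heart and muscle forms of respiratory chain subunits, Psmb8 and Psmb9 of the immunoproteasome, and Psma8 of the testis proteasome. They also included genes with no such restriction, such as the ribosomal protein genes Rpl37 and Rps27 and the chromatin gene Cbx3. The respiratory list had 36 of its 78 expressed genes lowest on replicate 4 and 42 highest on replicate 5, with mean deviations of -0.19 and 0.17 there. The proteasome list had 20 of 33 lowest on replicate 1, with a mean deviation of -0.25, and 15 highest on replicate 5, with 0.17. Of all expressed genes, 20.8% were highest on replicate 5. The share lowest on each array was not counted over all expressed genes.

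**Figure D4:**
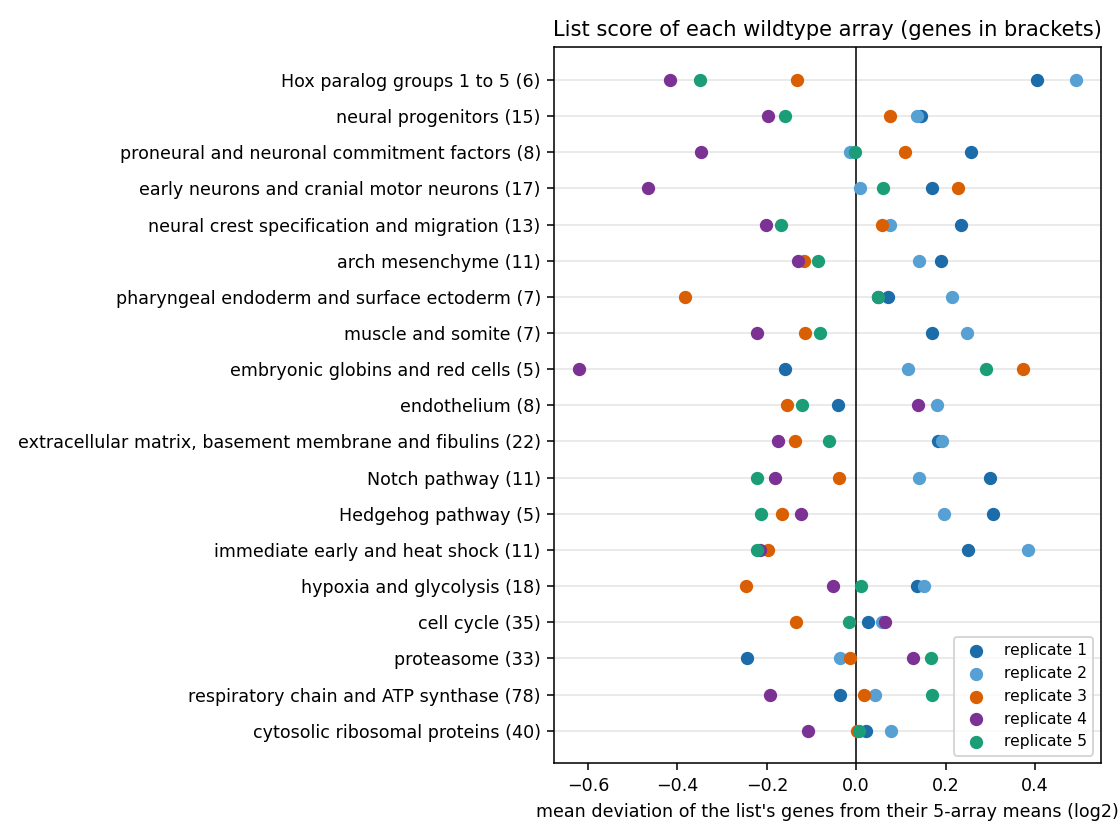
Mean deviation (log2) of each list's expressed genes from their own 5-array means, a point per wildtype array, with the number of genes in brackets. Replicates 1 and 2 lie to the right for Hox groups 1 to 5, immediate early genes and the Notch and Hedgehog pathways, and replicate 4 lies farthest to the left for neurons and globins.

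Tissue markers were also read for their spread. Of the 113 expressed markers, 23 (20.4%) had an SD over 0.5, beside 6.20% of all expressed genes, and 11 (9.73%) stood among the 100 genes with the highest SD, beside 1.79% of all expressed genes. These shares are a description, since the lists were chosen with results from these arrays known.

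The most variable gene was Ctr9, a subunit of the PAF1 complex that travels with RNA polymerase, with 9.26, 9.42, 4.95, 9.23 and 9.22 (8.42 ± 1.94). The low value of replicate 3 appeared on this probe set only. The next brightest probe set of Ctr9 had 5.93 on replicate 3, its highest value, and 5.42 to 5.64 on the others. Ttr, given above, followed with an SD of 1.73 on a probe set whose companions shared its order of highest and lowest array. Erdr1 had 11.27, 8.50, 11.16, 12.72 and 10.91 (10.91 ± 1.52), so replicate 2 was lowest and replicate 4 highest.

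Gm6958, a predicted gene, had 9.72, 9.29, 8.62, 6.76 and 6.44 (8.17 ± 1.48), and its second probe set had 8.30, 7.48, 7.04, 2.27 and 2.27. Both probe sets thus divided replicates 1, 2 and 3 from replicates 4 and 5. Rps25, a protein of the small ribosomal subunit with a single named probe set here, had 7.96, 7.78, 7.31, 6.98 and 4.35. Lancl2 had 8.71, 8.17, 5.79, 6.16 and 8.19. Gng3, a G-protein gamma subunit of neurons, had 6.89, 5.76, 7.07, 4.31 and 6.92, and Mt1, a metallothionein that binds zinc and copper, had 7.03, 7.16, 6.62, 5.07 and 7.81. Both had their lowest value on replicate 4.

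Slc25a39, a mitochondrial carrier, had 7.99, 7.71, 6.09, 5.65 and 6.59, and 1 of its other probe sets repeated the high value of replicate 1 (6.62). Hba-x, given above, was 10th by SD. Relative to the median SD of probe sets of like brightness, the same 10 genes led. The remaining 20 of the 30 had SDs from 0.93 (Ptdss2) to 0.78 (Exosc4), and Col18a1 followed just outside at 0.77. Of these 20, the neural genes Sox11 (7.06, 7.27, 8.01, 5.65 and 6.32), Dner (6.78, 6.34, 7.11, 5.01 and 6.18), Ttyh1 (7.83, 7.62, 8.89, 6.71 and 7.41) and Sncg (5.51, 5.82, 6.55, 4.44 and 5.93) were each highest on replicate 3 and lowest on replicate 4. Cdk5r1, the neuronal activator of Cdk5, was lowest there too (4.98).

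Lin28a, the RNA-binding protein that blocks let-7 maturation in early embryos, had 7.85, 7.75, 6.19, 8.43 and 7.15, and its second probe set had 6.81, 6.96, 5.58, 7.21 and 6.45. Both were highest on replicate 4 and lowest on replicate 3. Rhob, an immediate early GTPase, had 6.64, 6.77, 5.33, 5.01 and 4.89, with replicates 1 and 2 above the other 3. Rab11b (9.93, 9.96, 8.29, 8.69 and 8.44) and Odf2 (9.83, 9.89, 8.11, 8.80 and 8.38) had the same division. Thumpd1 ran the other way, with 7.23 and 7.73 on replicates 1 and 2 and 8.08 to 9.49 on the rest. Arg1, the arginase of the urea cycle, had 5.17, 6.37, 4.67, 6.72 and 6.22.

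**Figure D5:**
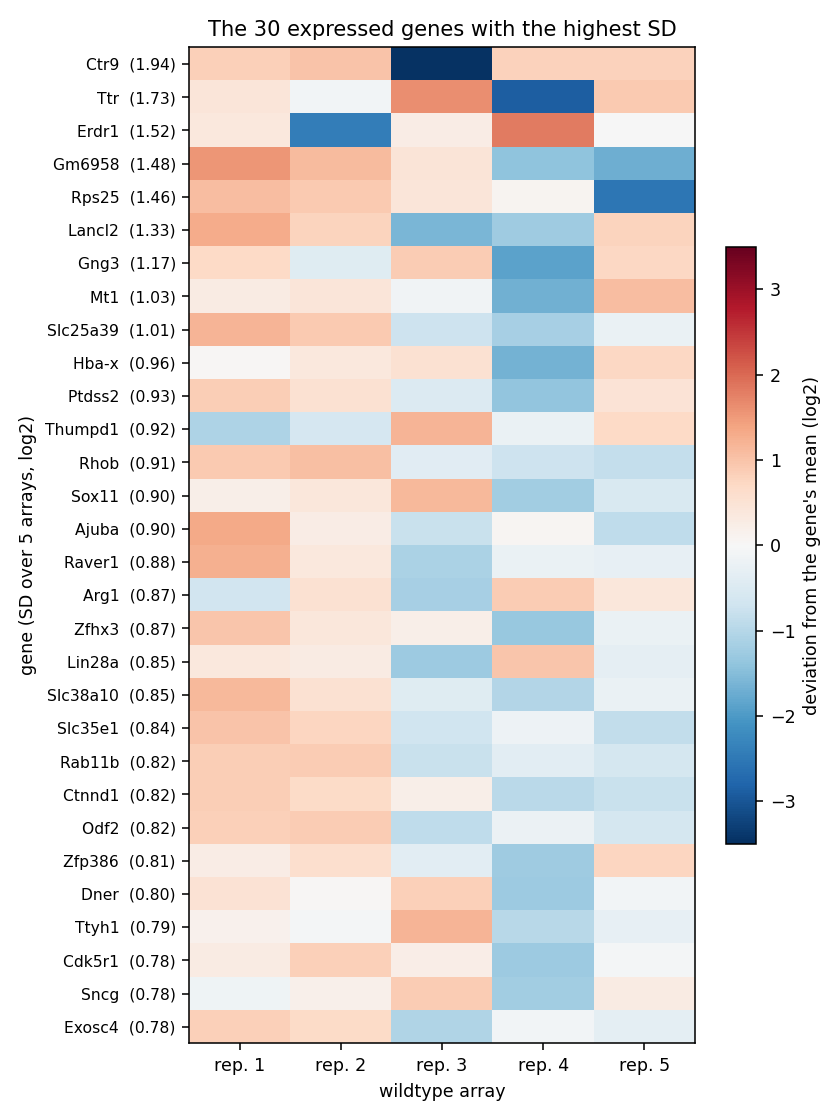
Deviation of each wildtype array from the gene's mean (log2, colour) for the 30 expressed genes with the highest SD, whose SD is given after the name. Ctr9 on replicate 3, Ttr on replicate 4 and Rps25 on replicate 5 are single low values, while Rhob, Rab11b and Odf2 are above their mean on replicates 1 and 2.

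The array that stood farthest from the others was counted for each gene. Among the 100 genes with the highest SD the array farthest from the median of the other 4 was replicate 1 in 32, replicate 2 in 8, replicate 3 in 25, replicate 4 in 33 and replicate 5 in 2. Among all 5601 expressed genes the shares were 24.0%, 10.8%, 23.0%, 24.7% and 17.5%. Replicate 1 stood high in 31 of its 32 genes, whereas replicate 3 stood low in 23 of 25 and replicate 4 low in 29 of 33. The first principal component of the expressed probe sets held 45.3% of the variance and placed replicates 1 and 2 (25.4 and 16.0) against replicate 4 (-21.3) and replicates 3 and 5 (-10.2 and -9.97). The second, with 27.8%, set replicate 3 (25.1) against replicate 4 (-17.3).

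A second probe set gave a check on the order of the arrays. Of 1887 expressed genes with another expressed probe set, 36.1% had their highest value on the same array with both and 37.5% their lowest. For the 100 most variable genes these counts were 14 and 15 of 29, and for the 30 most variable 3 and 4 of 9. The variable genes were chosen by the brightest probe set, whose median SD was 0.85 in those 9 genes, against 0.37 on the second probe set.

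At the other extreme 607 expressed probe sets had an SD under 0.1. The 10 most even genes were Plekha5, Tmem219, Ambra1, Rngtt, Brpf1, Nudt7, Rps2, Sema6b, Ctf1 and Etnk1. Plekha5 had a mean of 4.15 ± 0.00051 and Tmem219 4.55 ± 0.00056 (SD, n = 5), and 8 of the 10 had means of 4.02 to 5.00. The exceptions were Etnk1, an ethanolamine kinase (6.19 ± 0.018), and Rps2, a ribosomal protein (11.37 ± 0.011). Probe sets above log2 4 on no array had a median SD of 0.038, beside 0.25 for expressed ones. SDs as small as that of Plekha5 were also found near the floor, as for Fgf8 (2.26 ± 0.00042). The other probe sets of Plekha5, Nudt7 and Etnk1 were above log2 4 on no array, and that of Rngtt on 2. Whether the even values of these genes are signal of their transcripts was not tested.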

How the data were processed

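Per the labels' protocols, total RNA of the dissected tissue became biotin-labelled cRNA for Affymetrix hybridisation. The values the authors deposited are log2 signals; the submitters' processing notes name GCRMA, whose version is not given in the sources used here. That method corrects background from probe sequence, normalizes between arrays and summarises each probe set; whether the 5 null arrays entered its normalization is not given in the sources used here. The 5 columns of null arrays were not used. Of 22690 probe sets, 64 controls were left out, 20380 had 1 gene symbol in the platform annotation, 691 several and 1555 none. Only those with 1 symbol were named; 20351 matched RefSeq (GRCm38.p6).

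Means and SDs (n - 1) over 5 arrays were computed in Python 3.11.15 with numpy 2.4.6 and pandas 2.3.3. A gene was represented by its probe set with the highest mean. Expressed means above log2 4 on all 5 arrays. A list score is the mean deviation of a list's expressed genes from their own means. The number of arrays limits precision, and the design has 1 group, so no test was run. The computation was tested on simulated data. Named were the 30 brightest and 30 most variable genes, the 10 most variable for their brightness (20 bins), the 10 most even, the brightest and some unexpressed members of each list, the sex-linked genes, Fbln1 and Fgf8. Other genes given by list membership or single-array signal were picked with their values in view. The members, the 37 lists and the thresholds were chosen with earlier results of these data known. Alternatives covered threshold, normalization, probe set choice, spread measure and leaving out each array.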

Additional observations from a re-analysis of the deposited data

Results flagged for a closer look

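A value is given here when, among the 5 wildtype arrays, the highest or lowest array is separated from its nearest neighbour by more than 0.71 of the whole range. Chance passes about 1 in 20 groups of values. The check covered the described genes above log2 4 on at least 1 array, the list scores and array measures, and so includes genes that were described because 1 array stood apart. Of 267 values checked 39 passed, and of all 5601 expressed genes 346 (6.18%) passed. No cause was tested for any of them. The array that stood apart was replicate 4 in 11 cases, replicates 3 and 5 in 8 each and replicates 1 and 2 in 6 each.

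On replicate 4 the sex-linked genes Xist (10.42), Eif2s3y (2.70) and Kdm5d (2.70) stood apart, as did the embryonic globins Hba-x (8.90) and Hbb-y (12.14) and the ribosomal protein gene Rps28 (12.13), all 3 of them low. Cldn6 was high there (7.98), as was the bile acid transporter gene Slc10a1 (4.82), and the complement gene C1qb was low (3.03). Plekha5 (4.15) and Tmem219 (4.55) also passed there, but all 5 of their values round to the same number, so the gap is below the printed precision.

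Replicate 3 was apart for Ctr9 (4.95, low), Ldha, the lactate dehydrogenase of glycolysis (10.56, low), Krt8 (4.25, low), Brpf1 (4.63, low, with the others at 4.64) Tbx5, a heart and limb factor (3.82, low), Syt4 (5.11, high) and Ednrb (5.97, high). The mean deviation of the 7 expressed endoderm and ectoderm genes was low there as well (-0.38).

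On replicate 1 the high genes were Ebf2 (7.95, with the others at 7.82 to 7.83), Fgf13 (6.74), Rps2 (11.39), Sema6b (4.05) and Sox10 (4.92). Mageh1 was low there (2.88). On replicate 2 the high genes were Hoxd9 (7.86), Hoxa9 (5.50), Hoxd10 (5.48), Hoxa10 (4.96), Meis2 (9.53) and Meis3 (4.52). Replicate 5 was low for Rbbp4 (12.86), Rps25 (4.35) and Snai2 (4.55). It was high for the plasma protein genes Afp (7.30), Apoa2 (6.39), Apom (5.21), Rbp4 (4.27) and Serpina6 (4.43).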

How the results depend on the processing

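No paired analysis was possible because only 1 group was described and no test was run. At a threshold of log2 6 the expressed probe sets numbered 5660 and genes 3564, the median SD was 0.23, 67 tissue markers passed and 10 of the 30 most variable genes were shared with the list at log2 4. With expression required on at least 1 array, 10 of 30 were shared too. With the scaled median absolute deviation the median spread was 0.19, and 12 of 30 were shared. Leaving out each array in turn gave median SDs of 0.231 to 0.257 and 15 to 25 shared variable genes, the fewest without replicate 4 (15) and replicate 3 (19). It gave 28 to 30 shared brightest genes, 9240 to 9327 probe sets, 5609 to 5669 genes and 113 to 119 markers. Of the 30 brightest genes 16 remained with the mean over a gene's probe sets and 17 without _x_at and _s_at probe sets. The median correlation between arrays was 0.978 over expressed probe sets and 0.991 over all. Of the means of 273 named genes, 117 moved by more than their SD with the mean over probe sets, and 3 with quantile normalization. Signal near the floor limits dim genes, and 5 arrays limit every SD.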
